A study of Homo sapiens with 12 samples.

Results

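The comparison set cells given TNFα and apigenin together against untreated cells of the same line, 3 arrays against 3. The arrays were chosen by their labelled treatment, so 6 of the 12 arrays of the series enter it, with every probe set that carries exactly 1 gene symbol. MDA-MB-231 is an established human line grown from the pleural effusion of a patient with triple-negative breast cancer. Each sample was total RNA hybridised to 1 Affymetrix whole-transcript array. The cells with both agents received TNFα at 40 ng/ml and apigenin at 40 µM for 24 h, and the control cells received neither. The arrays with TNFα alone at 40 ng/ml and with apigenin alone at 40 µM, also 3 each and also at 24 h, are used here for side-by-side levels. They also enter the fit, which takes 1 residual variance per gene from all 12 arrays. All groups were grown in high-glucose medium with serum. The agents were prepared in a buffered salt solution, and the labels do not say whether control cells received it or any solvent. They call both doses sub-lethal. The series holds 1 line, 1 dose of each agent and 1 time.

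TNFα is an inflammatory cytokine. Its receptors on epithelial and tumour cells start the IκB kinase cascade, which frees NF-κB dimers (RELA, NFKB1 and relatives) to enter the nucleus and switch on chemokine, adhesion and survival genes. Among the targets are the pathway's own inhibitors, such as NFKBIA and TNFAIP3, which close the loop. Apigenin is a flavone of parsley, celery and chamomile. It is known as an inhibitor of several protein kinases and as a compound that arrests cultured tumour cells in G2/M.

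Values are deposited log2 expression values, in which a difference of 1 is a 2-fold change. Levels near the bottom of the scale understate a change in RNA, and levels of different genes are not compared, except in the rough check of marker genes below, where probe sets also differ in brightness. The 6 arrays had medians of 2.116, 2.153 and 2.119 with both agents, against 2.103, 2.159 and 2.099 in control. The upper quartiles were less alike, at 3.451, 3.479 and 3.558 with both agents, against 3.311, 3.366 and 3.51 in control. Probe sets above 4 made up 20.7%, 20.7% and 21.6%, against 19.7%, 19.5% and 21.4% in control. The part of this offset in the lean towards increases given below was not tested. Arrays of the same group correlated at 0.984 to 0.991 over all genes, and arrays of the 2 groups at 0.970 to 0.978. The labelled line was checked on marker genes. VIM, the mesenchymal filament vimentin, lay between 8.04 and 8.15 on the 6 arrays, and the receptor kinase AXL lay between 9.94 and 10.19. The hormone receptors ESR1 and PGR lay at 1.86 to 2.30 and 1.40 to 1.84, and the epithelial cadherin CDH1 at 1.86 to 2.10, where the 25th percentile of an array's probe sets was 1.60 to 1.64. Of 11 mesenchymal line markers, 8 were above the 75th percentile of genes on all 6 arrays, and SPARC was below the median gene. Of 15 leukocyte markers, 12 were below the median gene on all 6 arrays, and CD68 was the exception above the 75th percentile at 9.61 to 9.83. Of 19 luminal epithelial markers, 8 were below the median gene on all 6 arrays and 1, XBP1, was above the 75th percentile on all 6. EPCAM lay at 4.58 to 5.08 and KRT19 at 4.38 to 5.97, so luminal markers were mixed and not absent.

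Promoter sequences of 8 genes that the results turn on are shown first, each from 250 bases before to 50 bases after the transcript start, from RefSeq on GRCh38.p14, 5′ to 3′ on the gene's strand. Capitals mark matches to a motif on either strand. The windows of 13 genes were searched, and the 8 shown were picked after the search among those that hold a match. Of the 5 not shown, IL1A had no GGAANNNCC, CENPE neither TTTGAA nor CCAAT, JUNB no CArG box, KIF20A had CCAAT but no TTTGAA, and TRAF1 had GGAANNNCC after its start. In the first 4 the motif is GGAANNNCC, a common core of NF-κB sites, and these genes stand among the strongest increases or are the pathway's own inhibitors. The windows are chr4:73740319-73740618 (plus strand) for CXCL8, chr14:35404700-35404999 (minus strand) for NFKBIA, chr19:10270870-10271169 (plus strand) for ICAM1 and chr6:137867009-137867308 (plus strand) for TNFAIP3.
CXCL8: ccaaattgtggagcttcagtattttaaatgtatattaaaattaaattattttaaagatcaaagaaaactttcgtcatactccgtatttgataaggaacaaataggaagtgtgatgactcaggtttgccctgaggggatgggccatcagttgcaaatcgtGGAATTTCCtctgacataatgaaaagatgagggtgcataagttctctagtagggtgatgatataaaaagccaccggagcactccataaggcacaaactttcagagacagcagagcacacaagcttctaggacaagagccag
NFKBIA: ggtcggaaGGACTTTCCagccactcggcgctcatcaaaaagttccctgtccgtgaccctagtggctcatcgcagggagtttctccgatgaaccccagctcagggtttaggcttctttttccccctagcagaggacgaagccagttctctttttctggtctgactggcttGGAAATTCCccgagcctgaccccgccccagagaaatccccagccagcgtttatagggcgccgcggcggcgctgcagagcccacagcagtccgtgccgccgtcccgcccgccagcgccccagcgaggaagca
ICAM1: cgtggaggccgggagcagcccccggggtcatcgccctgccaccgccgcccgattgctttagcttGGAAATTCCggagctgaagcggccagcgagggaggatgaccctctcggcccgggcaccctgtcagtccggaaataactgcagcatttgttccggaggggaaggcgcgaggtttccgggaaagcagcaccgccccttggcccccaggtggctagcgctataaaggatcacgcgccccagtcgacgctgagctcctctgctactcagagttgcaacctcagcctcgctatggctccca
TNFAIP3: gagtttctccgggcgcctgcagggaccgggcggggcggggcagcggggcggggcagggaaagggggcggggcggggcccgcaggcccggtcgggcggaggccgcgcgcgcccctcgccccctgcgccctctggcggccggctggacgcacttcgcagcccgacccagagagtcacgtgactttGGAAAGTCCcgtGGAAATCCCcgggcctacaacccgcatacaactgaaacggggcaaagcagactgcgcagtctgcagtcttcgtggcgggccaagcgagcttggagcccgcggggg
The match of CXCL8 begins 91 bases before the start and that of ICAM1 begins 186 bases before it. NFKBIA has matches at 242 and 81 bases, and TNFAIP3 at 67 and 55 bases before the start.

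In PLK1 at chr16:23678639-23678938 (plus strand) and CCNB2 at chr15:59104896-59105195 (plus strand), both mitotic genes that fell, the capitals mark TTTGAA, the core of the cell cycle homology region, and CCAAT boxes.
PLK1: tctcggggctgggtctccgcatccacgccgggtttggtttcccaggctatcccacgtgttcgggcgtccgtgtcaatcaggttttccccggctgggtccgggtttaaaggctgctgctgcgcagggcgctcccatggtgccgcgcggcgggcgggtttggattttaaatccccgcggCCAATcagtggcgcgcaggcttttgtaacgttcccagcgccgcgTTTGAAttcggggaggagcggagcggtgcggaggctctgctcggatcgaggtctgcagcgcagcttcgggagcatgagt
CCNB2: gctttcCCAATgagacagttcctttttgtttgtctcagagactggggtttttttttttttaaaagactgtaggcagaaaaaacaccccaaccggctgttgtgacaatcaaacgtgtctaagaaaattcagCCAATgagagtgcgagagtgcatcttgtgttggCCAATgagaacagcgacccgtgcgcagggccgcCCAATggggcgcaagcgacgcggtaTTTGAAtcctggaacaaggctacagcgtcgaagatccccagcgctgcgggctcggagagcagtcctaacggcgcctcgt
TTTGAA begins 29 bases before the start in both genes. PLK1 has 1 CCAAT box, at 73 bases, and CCNB2 has 4, at 244, 120, 87 and 54 bases.

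In EGR1 at chr5:138465229-138465528 (plus strand) the capitals mark CArG boxes, the sites of serum response factor, and in SLC30A1 at chr1:211579112-211579411 (minus strand) they mark TGCACNC, the core of metal response elements.
EGR1: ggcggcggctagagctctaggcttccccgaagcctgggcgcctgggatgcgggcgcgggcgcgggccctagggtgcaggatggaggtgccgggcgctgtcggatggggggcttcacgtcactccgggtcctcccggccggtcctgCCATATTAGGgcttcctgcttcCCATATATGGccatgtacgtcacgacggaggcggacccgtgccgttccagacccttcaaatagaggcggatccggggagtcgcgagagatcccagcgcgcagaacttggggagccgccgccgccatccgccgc
SLC30A1: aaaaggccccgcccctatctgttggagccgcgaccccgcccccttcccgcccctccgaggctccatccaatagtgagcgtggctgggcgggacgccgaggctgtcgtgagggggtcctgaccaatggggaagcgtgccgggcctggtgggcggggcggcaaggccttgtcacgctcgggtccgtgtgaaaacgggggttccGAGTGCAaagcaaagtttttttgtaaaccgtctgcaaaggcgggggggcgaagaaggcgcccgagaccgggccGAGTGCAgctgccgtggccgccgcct
The CArG boxes of EGR1 begin 105 and 83 bases before the start. The matches of SLC30A1 begin 49 bases before the start and at base 25 of the transcript. The marked matches of a window do not overlap one another.

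Windows of this kind were found for 14711 of the 20572 genes tested. GGAANNNCC stood in 21.9% of all windows, in 14 of 35 windows of the list of NF-κB subunits, inhibitors and adaptors, and in 9 of 18 chemokine windows. TTTGAA stood in 11.8% of all windows and in 45 of 72 mitosis windows, and CCAAT in 35.8% of all windows and 53 of 72 mitosis windows. The CArG box stood in 1.2% of all windows and in 1 of 32 windows of immediate early genes, that of EGR1. TGCACNC stood in 11.9% of all windows and in 6 of 20 windows of zinc genes. These are counts of letters in the windows, with no test.

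Of 20572 genes, 2576 were called at a limma adjusted p below 0.05, which is 12.5% of those tested. With both agents 1471 genes (7.15%) were higher and 1105 (5.37%) were lower, and 57.1% of the calls were increases. The difference reached 2-fold in 488 of them (2.37%), 290 higher and 198 lower. Among all genes 27.6% had 3 values with both agents that did not overlap the 3 control values, and 2556 of the called genes were among these. The median difference over all genes was 0.00. The lean towards increases rested in part on single arrays: without control array 2 the calls were 980 higher and 1073 lower, and without control array 3 they were 1640 higher and 769 lower. Increases were then 47.7% of calls without control array 2 and 68.1% without control array 3. The lean was also absent after quantile normalisation with all arrays kept, with 1624 higher and 1628 lower (49.9% increases). The decreases numbered 693 without treated array 1 and 721 without treated array 2, and the increases 946 without treated array 3. The labels do not state whether the 3 samples of a group were separate cultures. Each p-value sets a difference against the spread within the 4 groups, with variances moderated across genes by limma, and that spread may be technical. ACTB and GAPDH, often used as housekeeping genes, were not called. ACTB, cytoskeletal actin, was at 3.50, 3.56 and 3.58 with both agents, against 3.40, 3.22 and 3.67 in control, and GAPDH, a glycolytic enzyme, was at 5.04, 5.07 and 4.91 with both agents, against 4.92, 4.92 and 4.96 in control.

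**Figure D1:**
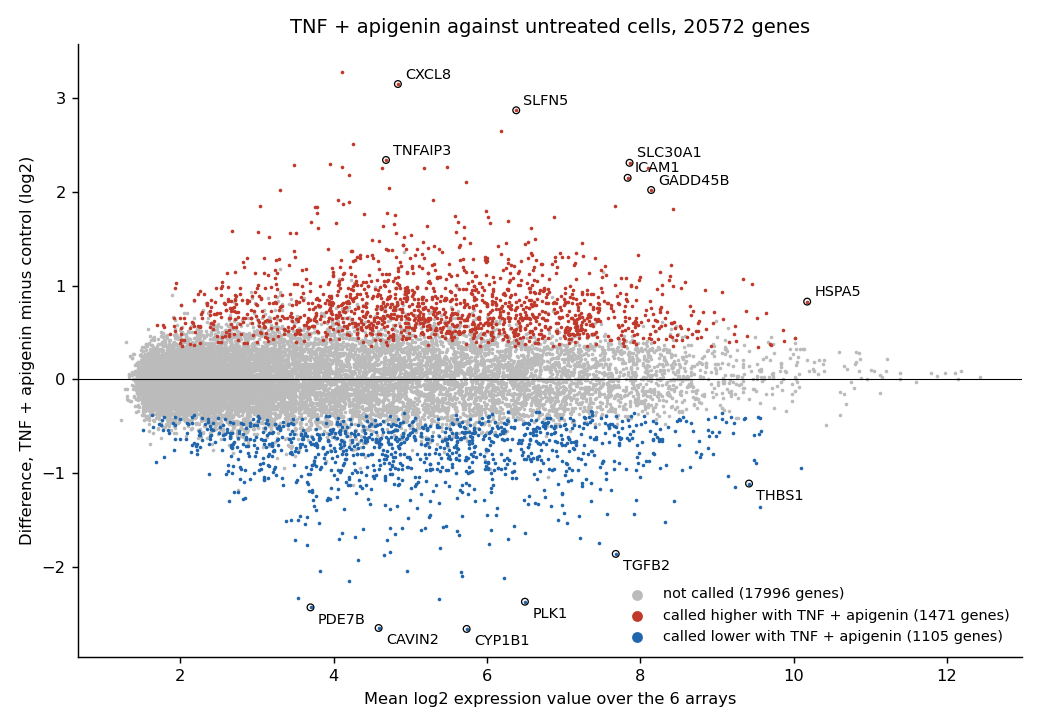
Difference of the group means (vertical, log2, TNFα plus apigenin minus control) against the mean log2 expression value over the 6 arrays (horizontal), 1 point per gene. Red points are the 1471 genes called higher with both agents, blue points the 1105 called lower, grey points the rest, and circled points carry their gene names.

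The strongest increase of a coding gene was that of CXCL8, the neutrophil chemokine interleukin-8. Its values were 6.41, 6.32 and 6.51 with both agents, against 3.17, 2.97 and 3.65 in control. All 3 treated arrays lay well above all 3 control arrays, and the difference was 3.15 ± 0.19 (standard error of the fit throughout), or 8.88-fold (adjusted p = 6.51e-07). SLFN5, a Schlafen family gene known as interferon-responsive, had 7.81, 7.83 and 7.81 with both agents, against 4.60, 4.96 and 5.28 in control, a rise of 2.87 ± 0.15. ARRDC4, an arrestin-type gene driven by glucose sensing, had 5.47, 5.12 and 5.94 with both agents, against 2.93, 2.92 and 3.15 in control (2.51 ± 0.30, adjusted p = 1.26e-04). The groups did not overlap for either gene. The other increases among the 15 largest were TNFAIP3 (2.34), SLC30A1 (2.31), ARC (2.30), EGR1 (2.27), KICS2 (2.27), RASD1 (2.25), CD83 (2.25), TRAF1 (2.18), ICAM1 (2.15), JUNB (2.11), MYLIP (2.04) and GADD45B (2.02), all as log2 differences. KICS2 belongs to the complex that restrains mTORC1 on lysosomes, and MYLIP is the ubiquitin ligase that degrades the LDL receptor.

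CYP1B1, a cytochrome that oxidises oestrogens and polycyclic hydrocarbons, had the largest decrease. It stood at 4.0, 4.62 and 4.60 with both agents, against 6.91, 7.08 and 7.20 in control. The highest treated array was more than 2 units below the lowest control array, and the control mean was 6.31 times the treated mean (log2 -2.66 ± 0.16, adjusted p = 6.33e-07). CAVIN2, a coat protein of caveolae, had 3.20, 3.19 and 3.39 with both agents, against 5.99, 5.71 and 6.04 in control (-2.65 ± 0.17). PDE7B, a phosphodiesterase of cyclic AMP, had 2.16, 2.41 and 2.88 with both agents, against 5.20, 4.38 and 5.16 in control (-2.43 ± 0.26). Neither overlapped with control. The rest of the 15 largest decreases were PLK1 (-2.37), IGFBP1 (-2.34), SLC2A12 (-2.33), ADAMTS15 (-2.15), KIF20A (-2.12), FAT4 (-2.10), KLHL4 (-2.05), SLC38A4 (-2.04), KRT80 (-1.92), CEMIP (-1.87), TGFB2 (-1.86) and CLCN4 (-1.84). They include a glucose transporter (SLC2A12), an amino acid transporter (SLC38A4), a protocadherin (FAT4) and a hyaluronan-degrading factor (CEMIP). For every called gene named here and below, other than LATS1, the 3 values with both agents did not overlap the 3 control values.

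**Figure D2:**
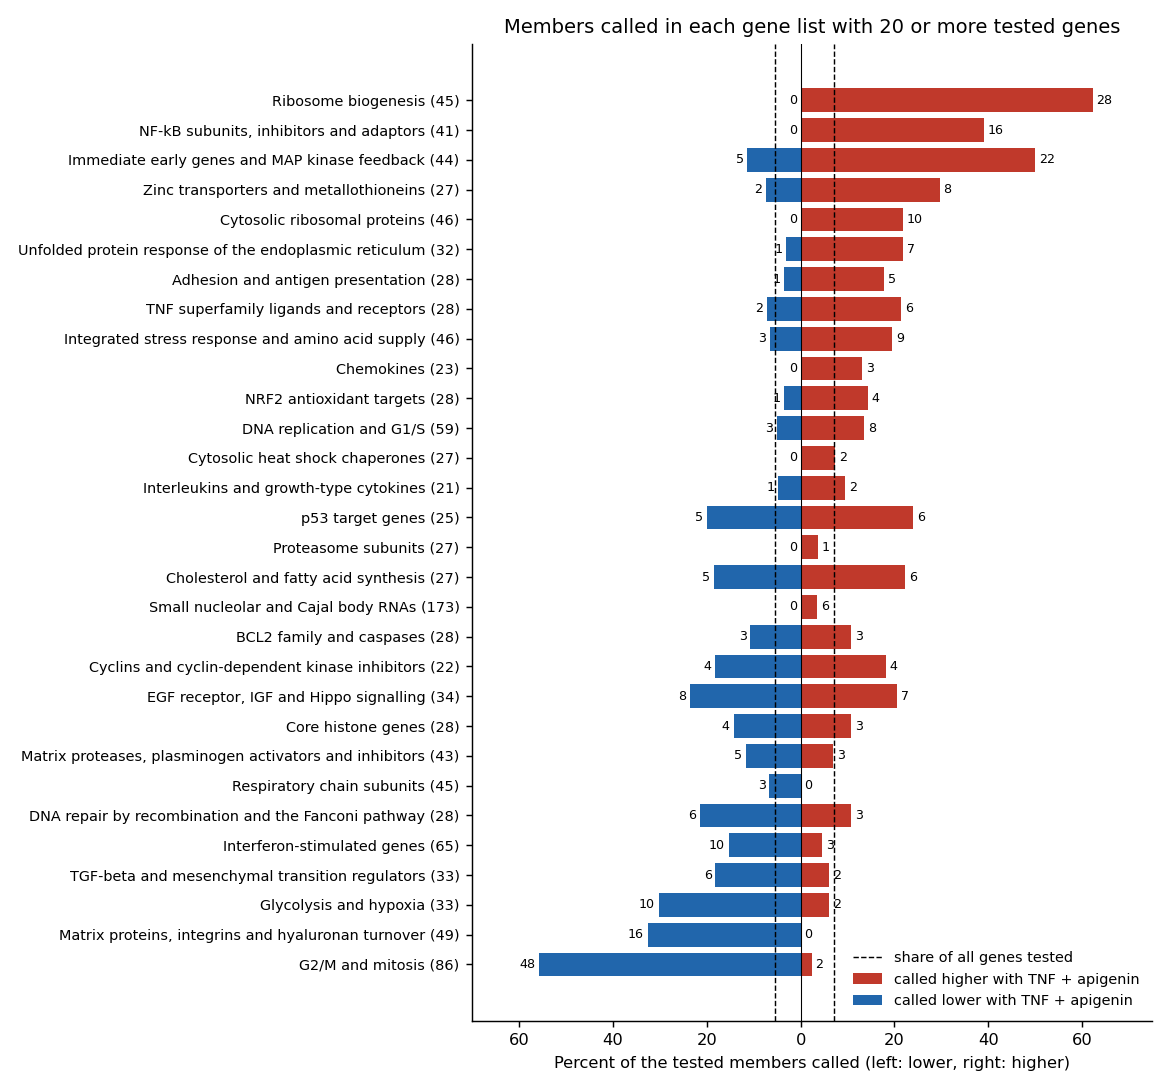
Percent of the tested members of each gene list called higher (red, right) or lower (blue, left) with TNFα plus apigenin; numbers at the bars are gene counts, and the tested number stands in brackets. Dashed lines are the shares of all genes, 7.15% higher and 5.37% lower. Ribosome biogenesis has 28 of 45 higher, and G2/M and mitosis has 48 of 86 lower.

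Of the 41 tested genes for NF-κB subunits, inhibitors and adaptors, 16 rose and none of the 41 fell (1 was lower at an unadjusted limma p below 0.05), so 39% were called where 12.5% of all genes were. The list's median difference was 0.26. TNFAIP3, the A20 enzyme that trims ubiquitin chains and shuts the pathway down, had 5.80, 5.81 and 5.95 with both agents, against 3.34, 3.67 and 3.53 in control. All treated values were above all control values by over 2 units, and the rise was 2.34 ± 0.15 (adjusted p = 6.51e-07). TRAF1, an adaptor of TNF receptor family members, had 5.45, 5.06 and 5.38 with both agents, against 2.96, 3.30 and 3.08 in control (2.18 ± 0.20).

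The subunits and inhibitors followed with smaller rises. NFKBIA, the inhibitor IκBα whose promoter is printed above, had 8.03, 7.97 and 7.92 with both agents, against 6.44, 6.46 and 6.65 in control, with no overlap and a rise of 1.46 ± 0.15 (adjusted p = 3.38e-05). NFKBIE, the related inhibitor IκBε, had 6.44, 6.15 and 6.49 with both agents, against 4.57, 5.0 and 5.21 in control (1.43 ± 0.19). NFKB1, the p105/p50 subunit, had 6.93, 6.88 and 7.14 with both agents, against 5.66, 5.31 and 5.58 in control (1.46 ± 0.13). NFKB2, the p100/p52 subunit, had 5.56, 5.36 and 5.94 with both agents, against 3.72, 4.17 and 4.70 in control, a wider spread in control, and a rise of 1.43 ± 0.28 (adjusted p = 0.0037). RELA, the main activating subunit, was chosen after its value was seen. It had 6.77, 6.67 and 6.93 with both agents, against 6.37, 6.35 and 6.65 in control, with groups that touched without overlapping, and its difference of 0.34 ± 0.14 was not called (adjusted p = 0.162). IKBKE, a kinase related to the IκB kinases, had 4.27, 4.06 and 4.51 with both agents, against 4.36, 4.09 and 4.74 in control with overlapping groups and a 95% interval of the difference from -0.71 to 0.47. It averaged 6.57 on the arrays with TNFα alone and 3.16 on those with apigenin alone.

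Chemokines are the secreted signals that draw leukocytes. Of 23 tested, 3 rose (CXCL8, CXCL1 and CXCL14), none of the 23 fell, and the median difference was 0.01. So 13% were called, near the 12.5% of all genes. At an unadjusted limma p below 0.05 the counts were 5 higher and 0 lower. CXCL1 had 4.02, 4.06 and 4.35 with both agents, against 3.29, 3.07 and 3.74 in control (0.77 ± 0.21, adjusted p = 0.0296) and CXCL14 had 2.42, 2.68 and 2.44 with both agents, against 2.01, 1.99 and 1.82 in control (0.57 ± 0.16, adjusted p = 0.0342). Both sat close to the threshold: CXCL1 lost its call without any 1 of the treated arrays 1, 2 and 3 or the control arrays 1 and 2, and CXCL14 lost it without any 1 of the 6 arrays. The count of chemokines called was 1 without treated array 2 or 3 or without control array 1 or 2. CCL2, which draws monocytes, had 1.85, 1.79 and 1.54 with both agents, against 1.77, 1.81 and 1.72 in control. CXCL10, an interferon-inducible chemokine, had 1.61, 1.95 and 1.89 with both agents, against 1.79, 1.26 and 1.66 in control. For both genes the groups overlapped, with 95% intervals of the difference from -0.34 to 0.27 for CCL2 and -0.20 to 0.70 for CXCL10. On the arrays with TNFα alone CCL2 averaged 2.90 and CXCL10 3.22, and both agents minus TNFα alone gave -1.17 ± 0.14 (adjusted p = 2.14e-04) and -1.40 ± 0.21 (adjusted p = 9.32e-04).

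Among 21 interleukins and growth-type cytokines, LIF and IL1A rose and IL24 fell, with a median of 0.06. The share called was 14.3%, near the 12.5% of all genes. LIF, a cytokine of the IL-6 family, had 5.63, 5.65 and 5.79 with both agents, against 4.89, 4.86 and 5.08 in control (0.75 ± 0.15, adjusted p = 0.00485). IL24, a cytokine of the IL-10 family, had 2.87, 2.67 and 2.87 with both agents, against 3.64, 3.80 and 4.10 in control, and the groups did not overlap (-1.05 ± 0.17, adjusted p = 9.42e-04). IL1A, the alarm cytokine interleukin-1α, had 2.37, 2.30 and 2.73 with both agents, against 1.80, 1.84 and 1.98 in control, a rise of 0.60 ± 0.15 (adjusted p = 0.0191). The call of IL1A was lost without treated array 3, control array 1 or control array 2. The count of increases was 1 without treated array 3 or control array 1, and the count of decreases was 2 without treated array 3. IL1A averaged 6.20 with TNFα alone and 1.71 with apigenin alone, beside means of 2.47 with both agents and 1.87 in control. IL6 had 3.17, 3.02 and 3.65 with both agents, against 2.82, 3.01 and 3.10 in control. Its groups overlapped, the 95% interval of its difference ran from -0.33 to 0.93, and it averaged 4.72 with TNFα alone.

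**Figure D3:**
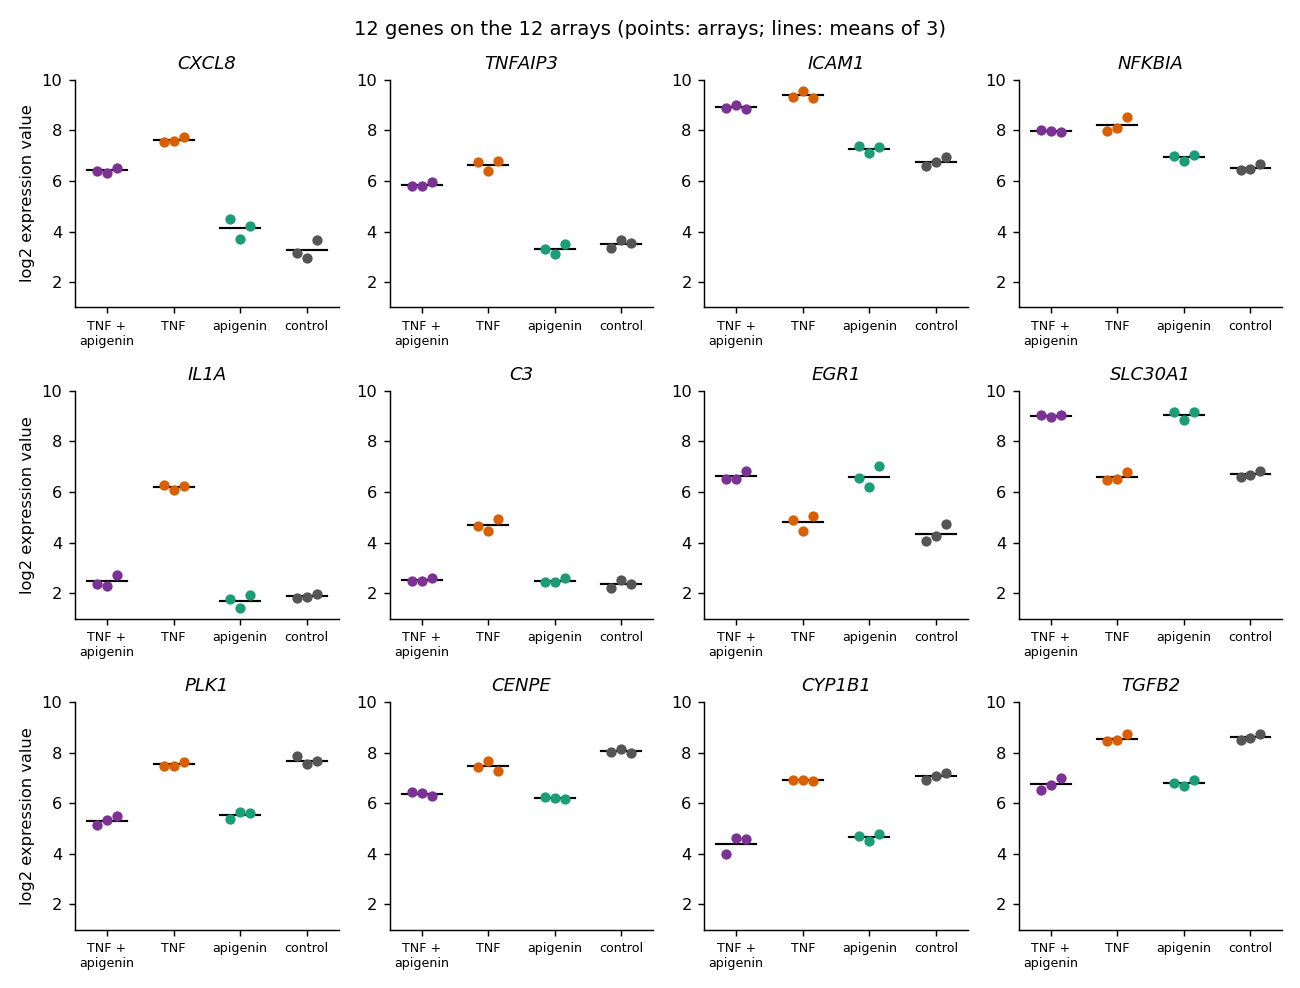
log2 expression values of 12 genes (vertical) on the 12 arrays, by group from left to right: TNFα plus apigenin, TNFα, apigenin and control. Points are arrays and lines are means of 3. CXCL8, TNFAIP3, ICAM1 and NFKBIA with both agents lie nearer to TNFα alone than to control. IL1A and C3 lie near control, and the 3 treated values of EGR1, SLC30A1, PLK1, CENPE, CYP1B1 and TGFB2 lie near those with apigenin alone.

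The TNF superfamily holds death and costimulation receptors with their ligands. Of 28 tested, 6 rose and 2 fell, and the median was 0.01. That is 28.6% called, beside the 12.5% of all genes. TNFRSF9, the costimulatory receptor 4-1BB, had 4.81, 5.10 and 5.11 with both agents, against 3.25, 2.96 and 3.08 in control (1.91 ± 0.16, adjusted p = 6.27e-06). TNFRSF10D, a decoy receptor for the ligand TRAIL, had 9.44, 9.29 and 9.27 with both agents, against 7.54, 7.40 and 7.61 in control (1.82 ± 0.11), and TNFRSF10B, the TRAIL death receptor DR5, had 6.16, 6.26 and 6.33 with both agents, against 5.28, 5.16 and 5.54 in control (0.92 ± 0.12). TNFSF10, which is TRAIL itself, went the other way with 6.64, 7.0 and 6.85 with both agents, against 7.82, 7.67 and 7.70 in control (-0.90 ± 0.12, adjusted p = 3.00e-04). TNFRSF21, the death receptor DR6, had 6.48, 6.59 and 6.95 with both agents, against 7.66, 7.77 and 8.02 in control (-1.14 ± 0.16). None of these 5 overlapped with control.

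Of 28 genes of adhesion and antigen presentation, 5 rose and 1 fell, 21.4% called beside the 12.5% of all genes. ICAM1, the ligand that leukocyte integrins grip, had 8.89, 8.99 and 8.85 with both agents, against 6.59, 6.75 and 6.94 in control. Every treated array was about 2 units above every control array, and the rise was 2.15 ± 0.13, or 4.43-fold. CD83, a marker of dendritic cell maturation, had 6.24, 6.42 and 6.25 with both agents, against 3.98, 3.69 and 4.50 in control (2.25 ± 0.20). CD274, the checkpoint ligand PD-L1, had 6.99, 7.16 and 7.22 with both agents, against 5.26, 5.35 and 5.68 in control, with no overlap and a rise of 1.69 ± 0.13 (adjusted p = 5.51e-06). ICAM2 rose by 0.79 ± 0.17 and ERAP2, a peptide trimmer for MHC class I, by 0.89 ± 0.24, and CD58, an adhesion ligand of T cells, changed by -0.53 ± 0.14. The ERAP2 call was lost without treated array 1 or 3 or control array 1 or 2, and the CD58 call without treated array 1, 2 or 3 or control array 2 or 3; the count of decreases was 0 without any treated array or without control array 3. In the complement and acute phase list, PTX3, a soluble pattern receptor, was the 1 call among 14, with 7.22, 7.29 and 7.48 with both agents, against 6.75, 6.65 and 6.91 in control (0.56 ± 0.13). It was not called without treated array 3, and the list had 2 calls without control array 1. The share called in this list, 7.14%, was under the 12.5% of all genes. C3, the central complement component, had 2.47, 2.50 and 2.62 with both agents, against 2.22, 2.54 and 2.36 in control, overlapping, with an interval of the difference from -0.14 to 0.45 and a mean of 4.69 with TNFα alone. MMP9, a gelatinase, had 2.56, 2.63 and 2.45 with both agents, against 2.37, 2.38 and 2.25 in control, no overlap but no call, an interval from -0.09 to 0.52 and a mean of 3.71 with TNFα alone.

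G2/M and mitosis genes build the spindle, load the kinetochores and drive the entry into division. Of 86 tested, 48 fell and 2 rose, so 58.1% were called, and the median difference was -0.51. The medians of the list on each array were 6.26, 6.19 and 6.39 with both agents, against 6.99, 6.99 and 7.18 in control, and the groups did not overlap. In bulk RNA, fewer cells in division and less of these RNAs per cell cannot be told apart. The number of decreases was 34 to 41 when 1 of the 6 arrays was left out.

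PLK1, the kinase that opens mitosis and whose promoter is printed above, had 5.12, 5.32 and 5.49 with both agents, against 7.86, 7.53 and 7.65 in control. The treated arrays lay about 2 units below the control arrays, and the control mean was 5.18 times the treated mean (log2 -2.37 ± 0.13, adjusted p = 3.57e-07). KIF20A, a kinesin of the central spindle, had 4.93, 5.11 and 5.46 with both agents, against 7.46, 7.11 and 7.29 in control (-2.12 ± 0.17), and NEK2, a kinase of centrosome separation, had 3.68, 3.61 and 4.21 with both agents, against 5.18, 5.41 and 6.05 in control (-1.71 ± 0.23). CENPE, the kinetochore kinesin, had 6.44, 6.41 and 6.27 with both agents, against 8.03, 8.16 and 7.98 in control, both groups close together (-1.69 ± 0.12, adjusted p = 2.07e-06). HMMR, a spindle-associated hyaluronan receptor, fell by 3.08-fold (log2 -1.62 ± 0.15). The B cyclins, partners of CDK1, both fell. CCNB2, with its 4 CCAAT boxes, had 4.36, 4.17 and 4.50 with both agents, against 5.96, 5.72 and 6.15 in control (-1.60 ± 0.20), and CCNB1 had 6.15, 6.47 and 6.50 with both agents, against 7.50, 7.58 and 7.71 in control (-1.22 ± 0.15). The 2 members that rose, named because the count is small, were CDCA5, a cohesion factor (0.58 ± 0.13), and CENPN, a centromere protein (0.56 ± 0.11). Of the 42 mitosis genes that fell and have a promoter window, TTTGAA stood in 29 (69.0%) and CCAAT in 29 (69.0%), where all 72 mitosis windows held TTTGAA in 62.5% and CCAAT in 73.6%.

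Other genes of the cell cycle moved in both directions. Of 59 genes of DNA replication and the G1/S step, 8 rose and 3 fell (median 0.08). That is 18.6% called, where 12.5% of all genes were, 7.15% higher and 5.37% lower. ORC6, a subunit of the origin recognition complex, had 6.95, 6.81 and 6.79 with both agents, against 5.41, 5.39 and 5.49 in control (1.42 ± 0.12), and FEN1, the flap nuclease, had 7.77, 7.79 and 7.54 with both agents, against 6.67, 6.36 and 6.85 in control (1.07 ± 0.14). GINS1, of the replicative helicase, had 5.06, 4.99 and 5.17 with both agents, against 5.90, 5.56 and 5.95 in control (-0.73 ± 0.14). The 3 genes did not overlap with control. Increases in this list numbered 5 without treated array 1 or without control array 2. Of 22 cyclins and inhibitors of cyclin-dependent kinases, 4 rose and 4 fell (36.4% called). CDKN1A, the inhibitor p21, had 5.45, 5.68 and 5.45 with both agents, against 4.26, 4.32 and 4.55 in control (1.15 ± 0.14, adjusted p = 1.63e-04). CCNE1, the G1/S cyclin E, rose by 1.03 ± 0.24, and CCNL1, a cyclin linked to splicing, by 1.28 ± 0.19. CDKN3, a phosphatase of CDK2, changed by -1.04 ± 0.15, CCNG2, an unusual cyclin of resting cells, by -1.0 ± 0.19, and RBL2, the pocket protein p130, by -0.89 ± 0.24. RBL2 lost its call without treated array 1 or 2 or control array 3.

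In the list of recombination and Fanconi repair, 3 of 28 rose and 6 fell, 32.1% called beside the 12.5% of all genes. RMI1, a partner of the BLM helicase, had 6.37, 6.16 and 6.32 with both agents, against 5.30, 5.30 and 5.68 in control (0.86 ± 0.16), and MRE11, the nuclease of the break-sensing complex, had 5.15, 5.0 and 5.59 with both agents, against 5.84, 5.84 and 6.18 in control (-0.70 ± 0.16). MRE11 was not called without treated array 2. The increases numbered 1 without treated array 3, control array 1 or control array 2 and 7 without control array 3, and the decreases 1 without treated array 2 and 3 without treated array 1, control array 1 or control array 3. Of 25 p53 target genes, 6 rose and 5 fell (44% called). DDB2, a damage sensor of nucleotide excision repair, had 3.76, 3.61 and 3.68 with both agents, against 4.76, 4.43 and 4.98 in control (-1.04 ± 0.15), and GDF15, a stress-secreted factor, had 4.27, 4.34 and 4.16 with both agents, against 4.90, 5.23 and 5.19 in control (-0.85 ± 0.15). RRM2B, the p53-inducible reductase subunit, changed by -0.80 ± 0.18. Among the increases were TNFRSF10B, given above (0.92 ± 0.12), ZMAT3 (0.77 ± 0.23) and the kinase PLK3 (0.71 ± 0.16). The ZMAT3 call was lost without any array but control 3. The p53 list had 3 increases without treated array 1. The line is known to carry mutant p53.

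**Figure D4:**
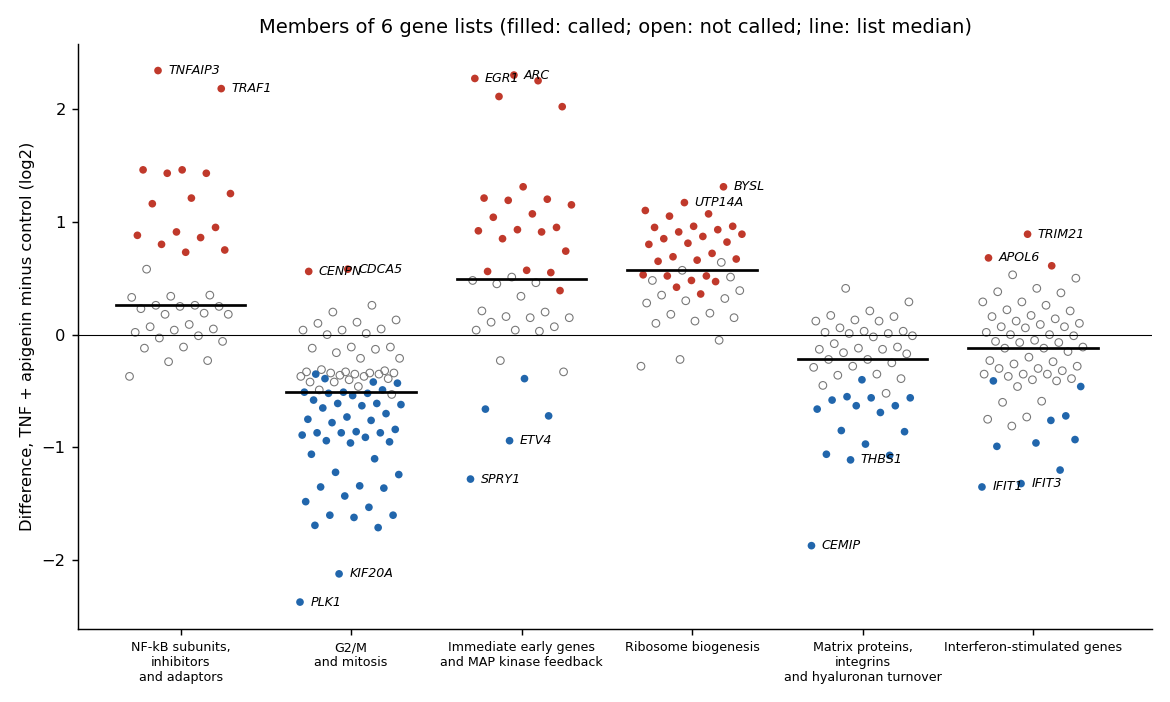
Difference of the group means (vertical, log2, TNFα plus apigenin minus control) for every tested member of 6 lists. Filled points were called (red higher, blue lower), open points were not, and black lines are the list medians, from -0.51 for G2/M and mitosis to 0.57 for ribosome biogenesis.

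Matrix proteins, integrins and enzymes of hyaluronan turnover are what a migrating tumour cell lays down and grips. Of 49 tested, 16 fell and none of the 49 rose (1 was higher at an unadjusted limma p below 0.05), and the median was -0.22. The share called was 32.7%, beside the 12.5% of all genes. CEMIP, which starts hyaluronan breakdown, had 3.53, 3.58 and 4.06 with both agents, against 5.54, 5.39 and 5.84 in control, with no overlap (-1.87 ± 0.18, adjusted p = 2.37e-05). THBS1, the matrix glycoprotein thrombospondin-1, had 8.87, 8.94 and 8.78 with both agents, against 9.84, 9.92 and 10.16 in control (-1.11 ± 0.12). Both integrin subunits named fell without overlap. ITGB4, of hemidesmosomes, had 6.42, 6.45 and 6.23 with both agents, against 7.39, 7.27 and 7.36 in control (-0.97 ± 0.11). ITGB8, which activates latent TGF-β, had 2.40, 2.25 and 2.48 with both agents, against 3.34, 3.08 and 3.89 in control (-1.06 ± 0.19). LOXL4, a collagen cross-linker, changed by -1.07 ± 0.21, and COL8A1, a short-chain collagen, by -0.86 ± 0.21. The COL8A1 call was lost without treated array 1 or 2 or control array 3. FN1, fibronectin, had 7.62, 7.59 and 7.67 with both agents, against 8.16, 8.10 and 8.27 in control (-0.55 ± 0.11). Without the 4 arrays numbered 3 the list had 9 decreases.

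Of 43 matrix proteases and their partners, 3 rose and 5 fell, with a median of -0.06. The share called was 18.6%, beside 12.5% of all genes, of which 7.15% were higher and 5.37% lower. PLAU, the urokinase that makes plasmin at the cell surface, had 6.94, 7.13 and 7.0 with both agents, against 8.17, 8.19 and 8.25 in control. All treated values were over 1 unit below all control values (-1.18 ± 0.11, adjusted p = 2.12e-05). PLAT, the tissue plasminogen activator, had 8.24, 8.28 and 8.05 with both agents, against 8.98, 9.08 and 9.28 in control (-0.93 ± 0.12), and ADAM10, a sheddase, had 7.61, 7.62 and 7.67 with both agents, against 8.28, 8.50 and 8.73 in control (-0.87 ± 0.13). TIMP3, an inhibitor of metalloproteases, fell too, by 1.74-fold (log2 -0.80 ± 0.10). ADAMTS9, a proteoglycan-cleaving protease, had 5.96, 5.83 and 5.97 with both agents, against 4.52, 4.55 and 5.02 in control (1.23 ± 0.15), and SERPINE2, an inhibitor of serine proteases, had 4.82, 4.80 and 5.02 with both agents, against 3.76, 4.0 and 4.20 in control (0.89 ± 0.13).

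In the list of TGF-β and mesenchymal transition regulators, 6 of 33 fell, 2 rose and 25 were not called, with a median of -0.06. The share called was 24.2%, beside the 12.5% of all genes. TGFB2, a TGF-β ligand, had 6.54, 6.72 and 6.99 with both agents, against 8.51, 8.57 and 8.75 in control (-1.86 ± 0.14, adjusted p = 2.95e-06). BMP4, a ligand of the BMP branch, had 7.44, 7.64 and 7.59 with both agents, against 9.09, 9.07 and 9.08 in control, with control values nearly equal (-1.52 ± 0.10). The receptors TGFBR1 and BMPR2 were also among the called decreases. TGFBR1 had 6.45, 6.55 and 6.53 with both agents, against 7.55, 7.33 and 7.70 in control (-1.02 ± 0.13), and BMPR2 changed by -0.78 ± 0.17. SNAI1, the transcription factor Snail, rose, with 4.19, 3.77 and 4.52 with both agents, against 2.69, 2.70 and 2.99 in control (1.37 ± 0.29, adjusted p = 0.00679). SMAD4, the shared signal carrier, was the other increase (0.52 ± 0.13), and was not called without treated array 3 or control array 2, each of which left 1 increase in the list. With the mean of its probe sets in place of the brightest, SMAD4 was not called (adjusted p = 0.555).

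Of 34 genes of EGF receptor, IGF and Hippo signalling, 7 rose and 8 fell, and the median was -0.23. The share called was 44.1%, beside the 12.5% of all genes. IGFBP1, a carrier of insulin-like growth factors, had 4.28, 3.98 and 4.36 with both agents, against 6.67, 6.48 and 6.49 in control (-2.34 ± 0.13, adjusted p = 3.57e-07). FAT4, an atypical cadherin upstream of Hippo, had 4.39, 4.40 and 5.07 with both agents, against 6.56, 6.55 and 7.05 in control (-2.10 ± 0.21). Targets of YAP went both ways. ANKRD1 had 8.77, 8.62 and 8.59 with both agents, against 9.77, 9.85 and 9.81 in control (-1.15 ± 0.10), whereas CCN2, connective tissue growth factor, had 8.95, 9.10 and 8.73 with both agents, against 7.81, 7.90 and 8.07 in control (1.0 ± 0.15). HBEGF, an EGF receptor ligand, had 7.21, 7.39 and 7.23 with both agents, against 5.87, 5.99 and 6.15 in control (1.27 ± 0.13). LATS1, a Hippo kinase, rose by 0.77 ± 0.23 with overlapping groups, a call lost without treated array 2 or 3 or control array 1 or 2. Increases numbered 4 without treated array 2 and 3 without treated array 3 or control array 2, and decreases 5 without any treated array and 4 without control array 3.

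Immediate early genes answer growth factors and stress within minutes, and the list adds the phosphatases and Sprouty proteins that damp MAP kinases. Of 44 tested, 22 rose and 5 fell, so 61.4% were called, with a median of 0.49. The list medians on the arrays were 5.51, 5.79 and 5.74 with both agents, against 4.85, 4.63 and 4.88 in control. EGR1, the zinc finger factor with 2 CArG boxes in the window printed above, had 6.52, 6.52 and 6.82 with both agents, against 4.05, 4.27 and 4.72 in control. The groups were well apart, with a rise of 2.27 ± 0.22 (adjusted p = 2.97e-05). ARC, known as a neuronal immediate early gene, had 5.23, 5.01 and 5.08 with both agents, against 2.28, 3.19 and 2.93 in control (2.30 ± 0.26), and RASD1, a Ras-like G protein, had 5.62, 5.86 and 5.79 with both agents, against 3.90, 3.33 and 3.27 in control (2.25 ± 0.22). JUNB, an AP-1 subunit, had 6.88, 6.81 and 6.64 with both agents, against 4.84, 4.51 and 4.65 in control (2.11 ± 0.12). GADD45B, a stress sensor upstream of p38 and JNK, was the tightest of these, with 9.13, 9.16 and 9.17 with both agents, against 7.16, 7.10 and 7.13 in control (2.02 ± 0.10). KLF10, a Krüppel-like factor, rose by 1.31 ± 0.14. SPRY1, a Sprouty inhibitor and the largest decrease of the list, was chosen after its value was seen and changed by -1.28 ± 0.13. Decreases numbered 3 without treated array 3 or control array 3.

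The zinc list holds transporters, metallothioneins and their regulator. Of 27 tested, 8 rose and 2 fell, with a median of 0.09. That is 37% called, beside the 12.5% of all genes. SLC30A1, the exporter at the plasma membrane whose promoter carries 2 TGCACNC matches, had 9.05, 8.96 and 9.04 with both agents, against 6.59, 6.69 and 6.83 in control. Both groups were tight and over 2 units apart (2.31 ± 0.13, adjusted p = 3.57e-07). MTF1, the metal-sensing transcription factor, had 7.65, 7.65 and 7.92 with both agents, against 5.92, 5.83 and 6.26 in control (1.73 ± 0.17), and MT1F, a metallothionein, had 5.52, 5.13 and 5.66 with both agents, against 3.84, 4.17 and 4.74 in control (1.19 ± 0.25). SLC39A10, an importer, fell, with 4.89, 4.98 and 5.08 with both agents, against 6.12, 6.28 and 6.33 in control (-1.26 ± 0.14). MT1E (0.83 ± 0.25) and MT1M (0.90 ± 0.26) also rose, and as near-identical family members their probes may share signal. The MT1E call was lost without any array but control 3, and the MT1M call without treated array 1 or 3 or control array 1 or 2. The increases numbered 4 without treated array 1 and 5 without control array 1 or 2, and the decreases 1 without treated array 1 or 2 or control array 1 or 3.

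Flavones are known ligands of the aryl hydrocarbon receptor. Of 10 tested genes of that list, CYP1B1 was the 1 call (10%, beside the 12.5% of all genes), and the list's median was -0.07. Of 15 glucose-responsive genes and glucose transporters, 3 rose and 3 fell (40% called). The increases were the arrestin-type genes ARRDC4, ARRDC3 and TXNIP. TXNIP, which restrains glucose uptake and binds thioredoxin, had 8.17, 8.38 and 8.52 with both agents, against 7.34, 7.09 and 7.40 in control (1.08 ± 0.13), and ARRDC3 had 8.65, 8.55 and 8.76 with both agents, against 7.86, 7.91 and 7.88 in control (0.77 ± 0.12). The decreases were transporters. SLC2A12 had 2.17, 2.22 and 2.71 with both agents, against 4.83, 4.10 and 5.15 in control (-2.33 ± 0.25), SLC2A1, the basal glucose transporter GLUT1, had 9.27, 9.32 and 9.18 with both agents, against 9.76, 9.82 and 9.95 in control (-0.58 ± 0.11), and SLC2A6 changed by -0.64 ± 0.13. Of 33 genes of glycolysis and hypoxia, 10 fell and 2 rose (36.4% called), with a median of -0.11. PDK1, which turns pyruvate away from mitochondria, had 6.31, 6.20 and 6.48 with both agents, against 7.33, 7.13 and 7.39 in control (-0.95 ± 0.12), and PFKFB4, a regulator of glycolytic flux, had 3.72, 3.36 and 3.59 with both agents, against 4.48, 4.42 and 4.29 in control (-0.84 ± 0.13). BNIP3L, a mitophagy receptor, changed by -0.79 ± 0.13, and NDRG1, a hypoxia-induced gene, by -0.72 ± 0.12. ADM, the peptide adrenomedullin, rose against the list, with 6.30, 6.41 and 6.30 with both agents, against 4.92, 4.86 and 5.01 in control (1.41 ± 0.10, adjusted p = 3.10e-06). The list's increases numbered 1 without treated array 3, control array 1 or control array 2.

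The integrated stress response raises ATF4 targets that supply amino acids, and the unfolded protein response raises chaperones of the endoplasmic reticulum. In the first list 9 of 46 rose and 3 fell (median 0.18), and in the second 7 of 32 rose and 1 fell (median 0.19). The shares called were 26.1% and 25%, beside the 12.5% of all genes. SESN2, a leucine sensor, had 4.85, 4.74 and 5.29 with both agents, against 3.61, 3.38 and 3.96 in control (1.31 ± 0.16), and ASNS, asparagine synthetase, had 5.81, 5.85 and 5.87 with both agents, against 4.75, 4.91 and 5.22 in control (0.89 ± 0.15). CEBPB, a transcription factor of inflammation and stress, had 4.66, 4.78 and 4.65 with both agents, against 3.83, 3.92 and 3.73 in control (0.87 ± 0.11). ATF3, a stress-induced repressor, changed by 0.77 ± 0.16, and PPP1R15A, the GADD34 phosphatase subunit, by 0.81 ± 0.15. ERN1, the endoplasmic reticulum sensor IRE1α, had 4.98, 5.21 and 5.26 with both agents, against 3.25, 2.82 and 3.71 in control, a wide control group and no overlap (1.89 ± 0.20, adjusted p = 5.33e-05). HSPA5, the chaperone BiP, had 10.67, 10.60 and 10.51 with both agents, against 9.63, 9.83 and 9.82 in control (0.83 ± 0.11), and XBP1, the factor that IRE1α splices, had 5.84, 5.79 and 5.83 with both agents, against 5.12, 4.92 and 5.24 in control (0.72 ± 0.14). Spliced and unspliced XBP1 are not separated here. CREB3L2 was the decrease (-0.76 ± 0.18), and its call was lost without treated array 1 or 2 or control array 3. That list had 0 decreases without treated array 1 or 2 or control array 3 and 2 without control array 1, and the integrated stress list 1 decrease without treated array 1 or control array 3.

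Chaperone, antioxidant and survival genes gave smaller counts. DNAJB1 (0.76 ± 0.13) and STIP1 (0.55 ± 0.12) were the 2 increases among 27 cytosolic heat shock chaperones and partners, a count of 5 without control array 3. That is 7.41% called, under the 12.5% of all genes. None of the 27 fell, where 2 were lower at an unadjusted limma p below 0.05. Of 28 NRF2 antioxidant targets, 4 rose and 1 fell, 17.9% called beside the 12.5% of all genes. GCLM, of glutathione synthesis, had 7.22, 7.15 and 7.05 with both agents, against 5.91, 6.38 and 6.35 in control (0.92 ± 0.17), and HMOX1, haem oxygenase-1, had 5.29, 5.10 and 5.29 with both agents, against 4.33, 4.33 and 4.43 in control (0.87 ± 0.18). The increases of this list numbered 2 without treated array 1 or 3 or control array 2, and the decreases 2 without control array 3. Of 28 BCL2 family members and caspases, 3 rose and 3 fell (21.4% called). MCL1, a survival factor, had 7.87, 7.88 and 7.75 with both agents, against 6.92, 7.16 and 7.15 in control (0.76 ± 0.12), and PMAIP1, its antagonist NOXA, had 8.15, 8.09 and 7.79 with both agents, against 7.34, 7.16 and 7.35 in control (0.73 ± 0.13). The decreases were 0 without treated array 1 or control array 3 and 1 without treated array 2 or 3. Of 12 drug efflux transporters ABCG2 (-0.96 ± 0.28) and ABCC4 (-0.50 ± 0.12) were lower, 16.7% called beside the 12.5% of all genes. The ABCG2 call was lost without treated array 1 or 2 or control array 1 or 3, each of which left 1 decrease.

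Ribosome biogenesis factors process ribosomal RNA in the nucleolus. Of 45 tested, 28 rose and none of the 45 fell (0 also at an unadjusted limma p below 0.05), 62.2% of the list, and the median was 0.57. The list medians on the arrays were 6.56, 6.45 and 6.60 with both agents, against 5.98, 6.01 and 6.15 in control, with no overlap. BYSL, of the small subunit, had 7.65, 7.63 and 7.35 with both agents, against 6.24, 6.18 and 6.30 in control (1.31 ± 0.12, adjusted p = 2.37e-05). UTP14A, of the small subunit processome, had 6.92, 6.75 and 6.71 with both agents, against 5.66, 5.46 and 5.75 in control (1.17 ± 0.14), and NIP7 had 9.08, 8.85 and 8.89 with both agents, against 7.85, 7.83 and 7.84 in control, with control values nearly equal (1.10 ± 0.11). NOP2, a methyltransferase of ribosomal RNA, had 7.31, 7.07 and 7.16 with both agents, against 5.98, 6.03 and 6.39 in control (1.05 ± 0.14). RRP1B rose by 1.07 ± 0.14 and RRP12 by 0.96 ± 0.12. The number of increases was 19 to 27 when 1 of the 6 arrays was left out.

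Of 46 cytosolic ribosomal proteins, 10 rose and none of the 46 fell (0 also at an unadjusted limma p below 0.05), and the median was 0.23. The share called was 21.7%. RPLP1, an acidic stalk protein, had 4.68, 4.68 and 5.23 with both agents, against 3.14, 3.14 and 3.30 in control (1.67 ± 0.17), and RPS24 had 5.56, 5.72 and 6.10 with both agents, against 4.53, 4.61 and 4.86 in control (1.13 ± 0.15). Ribosomal proteins have many processed pseudogenes, and probes may read several copies. The increases numbered 6 without treated array 3 or control array 2. Small nucleolar and Cajal body RNAs guide the modification of ribosomal and spliceosomal RNA. Of 173 tested, 6 rose and none of the 173 fell (2 were lower at an unadjusted limma p below 0.05), and the median was 0.21. The share called, 3.47% and all increases, was under the 12.5% of all genes called and the 7.15% called higher. The medians of these small RNAs on the arrays were 5.86, 5.85 and 5.90 with both agents, against 5.69, 5.44 and 5.33 in control. The part of this level in the results above was not tested beyond a fit with it as a covariate, in which 1474 genes were higher and 803 lower. SNORD99 had 4.21, 4.14 and 4.29 with both agents, against 2.65, 2.49 and 2.81 in control (1.56 ± 0.28), and SNORD75, hosted by GAS5, had 7.48, 7.31 and 7.61 with both agents, against 5.99, 5.94 and 6.78 in control (1.23 ± 0.20). The list had 1 decrease without control array 3. Of 28 core histone genes, 3 rose and 4 fell (25% called). H2BC5, known to give polyadenylated transcripts outside S phase, had 6.96, 6.66 and 7.04 with both agents, against 5.02, 5.07 and 5.18 in control (1.80 ± 0.16), and H2BC14 had 6.17, 6.94 and 6.67 with both agents, against 8.61, 8.22 and 8.16 in control (-1.74 ± 0.27). Histone copies are near-identical, so the gene behind a probe set is uncertain.

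**Figure D5:**
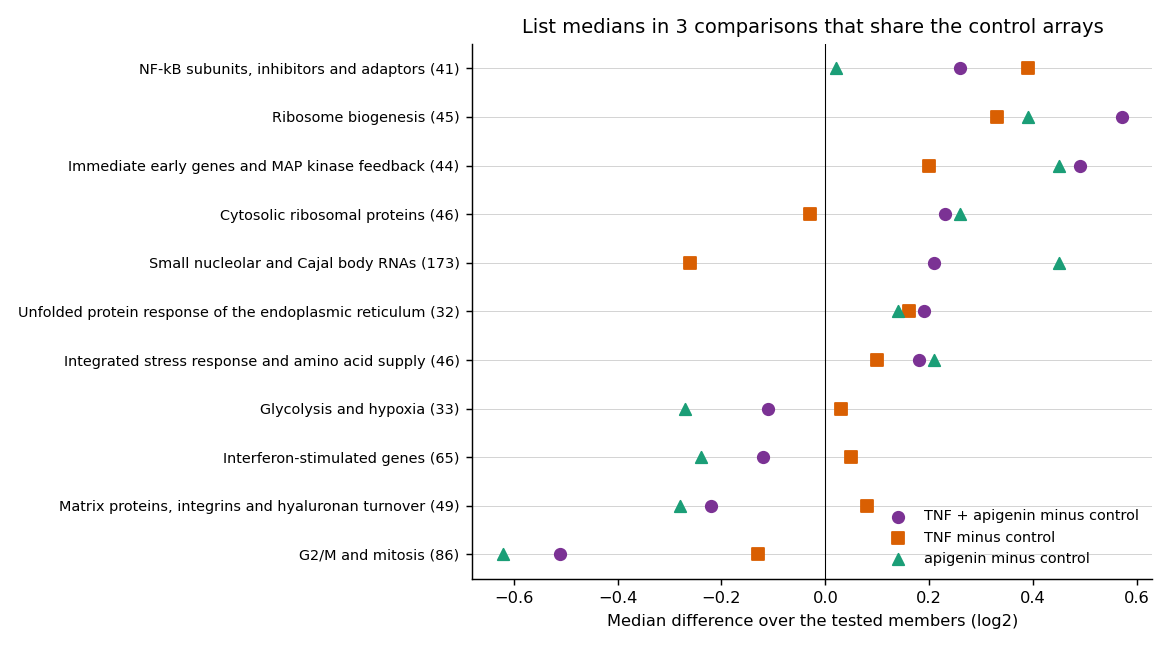
Median log2 difference over the tested members of 11 lists (horizontal) for TNFα plus apigenin, TNFα alone and apigenin alone, each minus the same 3 control arrays. For NF-κB genes the medians are 0.26, 0.39 and 0.02, for ribosome biogenesis 0.57, 0.33 and 0.39, and for G2/M and mitosis -0.51, -0.13 and -0.62.

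Respiratory chain and proteasome genes are housekeeping sets of the mitochondrion and of protein turnover. Of 45 respiratory subunits 3 were called lower, CYC1 (-0.61 ± 0.15), UQCRC1 (-0.53 ± 0.12) and ATP5F1C (-0.36 ± 0.11), and the median was -0.01. The share called, 6.67%, was under the 12.5% of all genes, and the count was 1 without any treated array or control array 2 and 0 without control array 1. Of 27 proteasome subunits PSMC4 (0.57 ± 0.14) was the 1 call, 0 without treated array 1 or 2 or control array 2 and 2 without control array 3. The proteasome share, 3.7%, was also under that of all genes. In cholesterol and fatty acid synthesis 6 of 27 rose and 5 fell (40.7% called). FASN, fatty acid synthase, had 6.84, 7.12 and 7.15 with both agents, against 6.14, 5.73 and 6.30 in control (0.98 ± 0.16), and SCD, which desaturates its products, had 9.59, 9.78 and 9.85 with both agents, against 8.90, 9.04 and 9.08 in control (0.73 ± 0.11). PMVK, of the mevalonate pathway, had 4.06, 3.58 and 3.96 with both agents, against 4.93, 4.65 and 5.0 in control (-0.99 ± 0.22), whereas HMGCS1, the entry enzyme of that pathway, had 5.45, 5.18 and 5.67 with both agents, against 4.77, 4.66 and 4.95 in control (0.64 ± 0.16). HMGCS1 lost its call without treated array 1 or 3 or control array 2, each of which left 3 increases, and without treated array 1 there were 3 decreases.

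Interferon-stimulated genes make the antiviral state. Of 65 tested, 10 fell and 3 rose, with a median of -0.12. That is 20% called, where 12.5% of all genes were, 7.15% higher and 5.37% lower. After quantile normalisation 18 fell. IFIT1, which binds viral RNA, had 3.37, 2.63 and 3.21 with both agents, against 4.73, 3.98 and 4.54 in control (-1.35 ± 0.22, adjusted p = 0.00131), and IFIT3 had 4.74, 4.54 and 4.88 with both agents, against 5.83, 5.88 and 6.40 in control (-1.32 ± 0.18). SAMD9L, a growth-restraining antiviral gene, had 5.11, 4.96 and 5.14 with both agents, against 6.30, 6.02 and 6.50 in control (-1.20 ± 0.16). IFIT2 changed by -0.99 ± 0.19, SAMD9 by -0.96 ± 0.13 and the helicase DDX60 by -0.93 ± 0.18. The 3 that rose, named because the count is small, were TRIM21 (0.89), APOL6 (0.68) and DTX3L (0.61). Of 19 luminal epithelial markers 5 fell and XBP1 rose (31.6% called). SPDEF, a luminal transcription factor, had 2.68, 2.89 and 2.78 with both agents, against 3.78, 4.66 and 4.41 in control (-1.50 ± 0.19), and KRT19, a simple epithelial keratin, had 4.64, 4.55 and 4.38 with both agents, against 5.97, 5.50 and 5.77 in control (-1.22 ± 0.18). Of 11 mesenchymal markers CAV1 (-0.58 ± 0.11) and FN1 fell (18.2% called). No call was made among 15 leukocyte or 10 fibroblast and endothelial markers, and 0 of them passed an unadjusted limma p below 0.05.

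VIPR1, a receptor of vasoactive intestinal peptide, had 4.41, 4.49 and 4.56 with both agents, against 6.23, 6.20 and 6.42 in control (-1.80 ± 0.13, adjusted p = 2.07e-06). It averaged 4.78 with TNFα alone and 4.81 with apigenin alone, so all 3 treatments lay below control. Their log2 differences, which share the control arrays, were -1.80 for both agents, -1.50 for TNFα and -1.47 for apigenin.

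The same fit gives the place of the combined treatment beside each agent alone. Against the same control arrays TNFα alone gave 205 calls (0.997%), 160 of them higher (0.778%), and apigenin alone gave 2342 (11.4%). The 205 were 98 and 131 without control arrays 1 and 2, and 103, 314 and 107 without TNFα arrays 1, 2 and 3. The 2342 were 1534 without apigenin array 1 and 1290 with the small nucleolar RNA median as a covariate. Against TNFα alone 2085 genes were called (10.1%), 867 (4.21%) higher and 1218 (5.92%) lower with both agents. Against apigenin alone 43 genes were called (0.209%), all 43 higher with both agents. The 4 genes of the printed NF-κB promoters were among the 43. TNFAIP3 differed from apigenin alone by 2.54 ± 0.15 (adjusted p = 2.69e-06), CXCL8 by 2.27 ± 0.19, ICAM1 by 1.63 ± 0.13 and NFKBIA by 1.05 ± 0.15. Both agents minus TNFα alone gave -0.78 ± 0.15 for TNFAIP3 (adjusted p = 0.00425), -1.21 ± 0.19 for CXCL8 and -0.48 ± 0.13 for ICAM1, all called. For NFKBIA it gave -0.23 ± 0.15, not called (adjusted p = 0.417). TRAF1 and CD83 differed from TNFα alone by 0.22 ± 0.20 and 0.23 ± 0.20, and neither was called (adjusted p = 0.623 and 0.592). PLK1 averaged 5.31 with both agents, 7.53 with TNFα alone, 5.54 with apigenin alone and 7.68 in control, and SLC30A1 averaged 9.02, 6.59, 9.05 and 6.70 in the same order. The count of 43 was 15 without apigenin array 1, 19 without apigenin array 2, 23, 19 and 18 without treated arrays 1, 2 and 3, and 27 without control array 1. The 2085 calls were 1191 without treated array 1 and 1278 without TNFα array 1. With the small nucleolar RNA median as a covariate they were 1057, of which 592 were higher and 465 lower, and without TNFα array 3 they were 780 higher and 749 lower, so the lean towards decreases did not hold in either fit. The increases numbered 524 without treated array 3, and the decreases 748 without treated array 2. The response to TNFα differed between cells with and without apigenin for 11 genes (0.0535%) by the interaction term of the fit, 2 of them upwards (0.00972%) and 9 downwards (0.0437%).

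Non-coding genes lie outside the rule for named genes and were chosen after their values were seen. The largest increase of any gene was at the probe set of MIR100, with 5.84, 5.47 and 5.92 with both agents, against 2.48, 2.37 and 2.55 in control (3.28 ± 0.20, 9.71-fold, adjusted p = 6.51e-07). All treated arrays were about 3 units above all control arrays. MIR100HG, the host gene, had 2.68, 2.56 and 2.86 with both agents, against 2.44, 2.39 and 2.28 in control and was not called (0.33 ± 0.13, adjusted p = 0.12). MIR21 had 5.70, 6.38 and 6.66 with both agents, against 4.58, 3.64 and 4.79 in control (1.91 ± 0.33, adjusted p = 0.00164), and MIRLET7I had 2.93, 3.14 and 3.0 with both agents, against 2.09, 2.20 and 2.50 in control (0.76 ± 0.13). HIF1A-AS2, antisense to the hypoxia factor HIF1A, had 7.64, 7.30 and 7.57 with both agents, against 4.70, 4.64 and 5.21 in control (2.65 ± 0.19), and MIR3143 had 8.87, 9.34 and 9.48 with both agents, against 6.86, 7.06 and 6.98 in control (2.26 ± 0.18). Whether these probe sets read a precursor, a host transcript or the mature RNA was not tested. The main mature forms of 3 of them are shown because a change of the mature RNA would act through the seed, bases 2 to 8, in capitals, and the seeds of the 3 differ. Sequences are from RefSeq on GRCh38.p14.
hsa-miR-100-5p: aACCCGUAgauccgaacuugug
hsa-miR-21-5p: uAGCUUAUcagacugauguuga
hsa-let-7i-5p: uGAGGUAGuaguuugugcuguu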

How the data were processed

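The authors deposited 1 log2 value for each probe set on each array. Per the submitters' processing notes the authors used Affymetrix Expression Console. Its version and settings, and the genome build, were not given in the labels. Of 53617 probe sets 23871 had 1 gene symbol, and those at or above their array's 25th percentile on at least 3 arrays were kept. A gene was read from its probe set with the highest mean, which gave 20572 genes. limma 3.58.1 (R 4.3.3) fitted 4 group means to the 12 arrays (8 residual degrees of freedom), with Benjamini-Hochberg adjustment over all genes of a comparison and calls at an adjusted p below 0.05. The fit was tested on simulated data. With 3 arrays against 3 a single-gene exact test cannot go below 0.1, so none is given, and the number of arrays limits the precision. The members and the 38 gene lists were chosen with earlier results of these data known. Named genes are the 15 largest called, non-overlapping changes of coding genes each way, up to 6 called members of each list by size, and a panel of 22. The alternatives tried were quantile normalisation, other filters and probe set rules, other fits, and leaving out arrays.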

Additional observations from a re-analysis of the deposited data

Results flagged for a closer look

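For 9 named genes the response to TNFα differed between cells with and without apigenin, by the interaction term of the limma fit, which is the difference of both agents from apigenin alone minus that of TNFα alone from control. Over all genes 11 interaction terms were called (0.0535%). For IL1A the term was -3.57 ± 0.21 on the log2 scale (adjusted p = 4.68e-06), and for C3 it was -2.29 ± 0.20 (adjusted p = 2.00e-04). These 2 terms were called under each of the 20 other settings run. For CXCL8 it was -2.09 ± 0.28 (adjusted p = 0.0218), for CXCL11 -1.51 ± 0.22 (0.0342), for IL24 -1.47 ± 0.23 (0.0489), for MMP9 -1.39 ± 0.20 (0.0342) and for CLDN1 -1.12 ± 0.17 (0.0471). For SAMD9L it was 1.37 ± 0.22 (0.0489) and for VIPR1 1.18 ± 0.18 (0.0463), both positive. CXCL11 and CLDN1 were chosen after their values were seen. The CXCL8 term was not called under 10 of the 20 settings, and those of the other 6 genes not under 12 to 16 of them, every term keeping its sign. The number of interaction calls was 2 to 6 when 1 of the 12 arrays was left out.

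CLDN1, a tight junction protein, had 3.69, 3.69 and 3.81 with both agents, against 3.19, 3.04 and 3.29 in control (0.55 ± 0.12, adjusted p = 0.00869), and averaged 5.0 with TNFα alone and 3.02 with apigenin alone. CXCL11, an interferon-inducible chemokine, had 2.56, 2.47 and 2.70 with both agents, against 3.06, 2.82 and 2.54 in control, overlapping, and averaged 4.41 with TNFα alone.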

How the results depend on the processing

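The 2576 calls, 1471 higher and 1105 lower, numbered 1730 to 2409 when 1 of the 6 arrays was left out, with 946 to 1640 higher and 693 to 1073 lower. Quantile normalisation gave 3252 calls (1624 higher, 1628 lower), the 6 arrays alone 2151, the small nucleolar covariate 2277 (1474 higher, 803 lower), and the 4 arrays numbered 3 left out 1875 (1184 higher, 691 lower). A 2-fold minimum left 488, 290 higher and 198 lower. The other filters, probe set rules and eBayes settings gave 2555 to 2698. The cause of these shifts was not tested, beyond fewer arrays or a stricter rule where the setting itself has them.

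The samples share replicate numbers. The deviations of same-numbered arrays from their group means correlated at 0.06, 0.32 and 0.37 between both agents and control, and 13 of 18 same-numbered pairs over the 4 groups exceeded 0.1, with a range of 0.02 to 0.46. Because the labels do not say that a number marks a shared batch and not every pair exceeded 0.1, the block was kept out of the main values. All 18 correlations were nevertheless positive, so same-numbered arrays deviated alike to some degree. In each of the 4 groups array 3 had the largest share of probe sets above 4, from 21.2% to 21.6%. Whether the number marks a batch was not tested. With the replicate block 3819 genes were called, 2134 higher and 1685 lower, RELA was called (adjusted p = 0.0443), and the interferon list had 16 decreases and 5 increases.

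Of 188 called genes named by the rule, 151 kept their call in each of the 6 fits without 1 array, 145 did so in all 16 settings, and none of the 188 changed sign. Among named genes that were not called, CCL2 ran from -0.10 to 0.05, IKBKE from -0.27 to 0.05, VIM from -0.01 to 0.04 and PGR from -0.12 to 0.10 when 1 array was left out. Of 1216 list counts compared, 156 moved by more than 1.5 times or changed to or from 0. After quantile normalisation the decreases were 18 in the interferon list, against 10, 7 in the replication list, against 3, and 6 in the integrated stress list, against 3.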
